A study of Mus musculus with 6 samples.

Results

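The integrin genes described here are a set of 10 named genes of integrin subunits and an integrin partner, of which 8 had a row in the deposited table of 12125 genes: the beta subunits Itgb1, Itgb5 and Itgb6, the alpha subunits Itga1, Itga3, Itga6 and Itgav, and Itgb1bp1. Itgb3 and Itga5, the other 2 genes named, are not analysed here. The genes were chosen by name, and Itgb1 was included because it encodes CD29, one of the 2 markers used to sort the cells. Of the 8 genes, 7 passed a filter on low values and were tested, and Itga3 did not pass it.

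The 6 libraries came from kidneys of 3 Trf1+/+ and 3 Trf1flox/flox mice, the latter with both copies of the gene of the telomere protein TRF1 flanked by lox sites. Mice of both groups carried Col1a2-CreERT2, a Cre recombinase active after tamoxifen and driven by the promoter of the collagen gene Col1a2, and a reporter of the Katushka fluorescent protein (KFP) behind a lox-flanked stop. All were male or female mice given tamoxifen intraperitoneally 3 times a week for 8 weeks, starting at 6 to 8 weeks of age, and their kidneys were taken at the end of that time. For each mouse, 500 cells isolated with antibodies to CD29 and KFP were sequenced as bulk RNA, and the text of the study does not say whether the sequenced cells carried both markers. The libraries are called Trf1+/+ replicates 1 to 3 and Trf1flox/flox replicates 1 to 3, and a shared number pairs no mice. The question asked of these genes was whether their expression differed between the genotypes.

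Integrins are receptors made of 1 alpha and 1 beta chain that span the cell membrane and hold a cell to the matrix around it or to other cells. The chains pair selectively: the beta 1 chain of CD29 joins the alpha 1, alpha 3 and alpha 6 chains to form receptors for collagen and laminin, while the alpha v chain joins the beta 1, beta 5 and beta 6 chains to bind matrix proteins with an RGD motif, and the alpha v beta 6 receptor of epithelial cells releases active TGF-beta from its latent form. In the kidney, tubule epithelium, endothelium and interstitial cells all use beta 1 integrins.

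The start regions of 3 genes are shown because the results below turn on them: Itgb1 as the gene of the sorting marker, Itgb6 as the subunit whose level was lowest where that of Itgb1 was highest, and Itgb1bp1 as the only member whose groups did not overlap. Each window of 300 bases runs from 250 bases before to 50 after the start of transcription in RefSeq on GRCm38.p6, and 7 of the 8 genes were matched to 9 such windows, with none found for Itga6. Capitals mark a GC box (GGGCGG), a TEAD motif (GGAATG) or an ETS motif (CTTCCGG), searched on both strands and picked after the windows had been read.
Itgb1 (chr8:128685404-128685703, plus strand): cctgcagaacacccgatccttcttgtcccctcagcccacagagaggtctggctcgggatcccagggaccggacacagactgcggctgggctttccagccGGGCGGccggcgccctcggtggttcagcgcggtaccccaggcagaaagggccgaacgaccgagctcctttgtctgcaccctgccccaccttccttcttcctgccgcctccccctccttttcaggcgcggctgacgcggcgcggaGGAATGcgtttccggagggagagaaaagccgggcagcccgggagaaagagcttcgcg
Itgb6 (chr2:60722554-60722853, minus strand): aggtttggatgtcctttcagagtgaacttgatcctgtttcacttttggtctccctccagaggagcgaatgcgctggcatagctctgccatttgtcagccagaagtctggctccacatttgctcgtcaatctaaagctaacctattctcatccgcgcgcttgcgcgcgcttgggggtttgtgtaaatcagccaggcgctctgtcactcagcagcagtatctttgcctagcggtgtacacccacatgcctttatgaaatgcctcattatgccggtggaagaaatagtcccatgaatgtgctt
Itgb1bp1 (chr12:21286235-21286534, minus strand): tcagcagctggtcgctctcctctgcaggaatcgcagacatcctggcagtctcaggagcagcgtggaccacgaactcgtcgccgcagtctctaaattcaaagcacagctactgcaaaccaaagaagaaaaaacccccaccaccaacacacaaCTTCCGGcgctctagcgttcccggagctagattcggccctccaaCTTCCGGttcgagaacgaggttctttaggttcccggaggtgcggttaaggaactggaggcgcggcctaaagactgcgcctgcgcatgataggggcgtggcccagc
The Itgb1 window held a GC box, 151 bases before the start, and a TEAD motif, 7 bases before it. The Itgb1bp1 window held 2 copies of the ETS motif, 99 and 55 bases before the start. An AP-1 motif (TGANTCA) and a TATA box (TATAAA) were searched as well and were in none of the 3 windows. The Itgb6 window shown held none of the 5 motifs. It had 50.3% G and C, against 67.3% in that of Itgb1 and 58% in that of Itgb1bp1. Another Itgb6 window (chr2:60673644-60673943), not shown, held none of the 5 motifs either and had 38.3% G and C. A GC box was found in 35.7% of all 32851 RefSeq windows of this length, the TEAD motif in 14.7%, the ETS motif in 8.86% at least 2 ETS motifs in 1.48%, the AP-1 motif in 7.81% and the TATA box in 13.6%. These matches are descriptions of sequence, and no deposited value bears on the binding of a factor there.

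The values are normalized counts, the reads of a gene divided by 1 size factor per library, and all of them (100%) came out as whole reads within 0.01 reads. The listed genes held 10263382 to 12248797 reads per library, and 1 read was worth 0.689 to 1.09 normalized counts. The floor was set at 3 reads per library, and it covers counting error only because the reads were amplified by PCR and carried no molecular identifiers. The library labelled Trf1+/+ replicate 1 stood apart: the median gene had 13.4 normalized counts in it and 118 to 148 in the rest, and Terf1, the gene of TRF1, had 1 read there, which goes against its label. Terf1 had 0.891, 253 and 235 normalized counts in Trf1+/+ mice and 110.0, 7.65 and 12.4 in Trf1flox/flox mice. The value of Trf1flox/flox replicate 1 stood for 128 reads, so 1 library in each group had a Terf1 level unlike its label. The groups overlapped, and Terf1 did not pass the threshold of 0.05 (adjusted p = 0.996 from limma). The fold changes and medians that turned or moved most when Trf1+/+ replicate 1 was left out are also given without it.

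The fibroblast label of the samples was not borne out by their defining markers. Col1a2, whose promoter drives the Cre, was at 0 to 1.78 normalized counts in all 6 libraries, Col1a1 and Pdgfrb had no row, and 3 of 18 fibroblast markers were listed. Their summed level was 16.6 to 1756 normalized counts in Trf1+/+ and 43.8 to 633 in Trf1flox/flox mice. The highest sum of each group was mostly Nt5e, at 1754 in Trf1+/+ replicate 1 and 593 in Trf1flox/flox replicate 3, while Dcn reached at most 97.3. All 20 proximal tubule markers, all 13 of the loop and distal tubule and all 15 of the collecting duct were listed. Umod, the uromodulin gene of the thick ascending limb, had 21896 to 80777 normalized counts. Listed were 3 of 15 endothelial, 6 of 20 macrophage and leukocyte, 4 of 12 pericyte, mesangial and smooth muscle, 3 of 8 podocyte and parietal and 8 of 10 red cell and platelet markers, and Ptprc had no row. Because these are bulk samples, fewer cells of a type and less RNA per cell cannot be told apart for any gene below.

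Itgb1, the beta 1 chain itself (ENSMUSG00000025809, chromosome 8, 128685654 to 128733200, plus strand of GRCm38), was found in every library but spanned a wide range within the Trf1+/+ group. It had 4.45, 1735 and 359.7 normalized counts in Trf1+/+ replicates 1, 2 and 3 and 480.3, 819.6 and 603.7 in Trf1flox/flox replicates 1, 2 and 3. The highest and the lowest value were thus both in Trf1+/+ libraries, and the Trf1flox/flox values lay between them. The value of Trf1+/+ replicate 1 stood for 5 reads, or 0.408 RPM, the reads scaled to the depth of the library (95% exact binomial interval 0.133 to 0.953), and the other 5 libraries had 35.5 to 179 RPM. At 5 reads Itgb1 was still above the floor, yet in that library it sat at the 45.7th percentile of all listed genes, compared with the 73.6th to the 95th elsewhere. The cells had been isolated with an antibody to the protein this gene encodes, and the protein level was not measured in these files.

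Itgb1 had a mean of 699.7 ± 914 in Trf1+/+ mice (SD, n = 3), and 634.5 ± 172 was the mean of Trf1flox/flox mice (SD, n = 3). Its log2 fold change (Trf1flox/flox minus Trf1+/+, on the scale of log2(normalized count + 1), as all fold changes below) was 2.04 with a standard error of 2.14 (adjusted p = 0.996 from limma). The permutation test over the 6 libraries (exact, two-sided) gave p = 0.7, where 0.1 is the smallest p that 3 against 3 allow. Without Trf1+/+ replicate 1 the log2 fold change was -0.35 with a standard error of 0.97, so in limma the sign of the difference rested on that library. Without Trf1+/+ replicate 2 it was 3.81 and the groups did not overlap, as in 10.7% of all tested genes in that direction, with an exact two-sided permutation p of 0.1, the smallest possible. With all 6 libraries the log2 fold change of Itgb1 was -0.23 in edgeR and -0.15 in DESeq2, so its sign also changed with the model. No difference in Itgb1 between the genotypes was larger than the spread between mice.

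Itgb6 and Itgb5, the beta chains that pair with alpha v, did not move together with Itgb1. Itgb6 (ENSMUSG00000026971, chromosome 2, 60598292 to 60722643, minus strand), an epithelial subunit, had 1569, 56.3 and 1313 normalized counts in Trf1+/+ mice and 908.2, 676 and 1168 in Trf1flox/flox mice. Its lowest value was in Trf1+/+ replicate 2, the library with the most Itgb1, and the other 5 values lay within 676 to 1569. The log2 fold change of Itgb6 was 0.87 with a standard error of 1.45 (adjusted p = 0.996 from limma), and it was 1.71 without Trf1+/+ replicate 1. Without Trf1+/+ replicate 2 its log2 fold change turned to -0.68, and all 3 Trf1flox/flox values then lay below both Trf1+/+ values, as in 8.19% of all tested genes.

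Itgb5 (ENSMUSG00000022817, chromosome 16, 33829665 to 33949338, plus strand), which encodes the beta chain of a vitronectin receptor, had 777, 179.8 and 165 normalized counts in Trf1+/+ mice and 375, 221 and 190.2 in Trf1flox/flox mice. It was highest in Trf1+/+ replicate 1, where Itgb1 was lowest, and the groups overlapped. The log2 fold change was -0.18 with a standard error of 0.95 (adjusted p = 0.996 from limma), and it was 0.54 without Trf1+/+ replicate 1. Both Trf1+/+ values then lay below all 3 Trf1flox/flox values, as in 9.15% of all tested genes.

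Itgav, the alpha v chain (ENSMUSG00000027087, chromosome 2, 83724397 to 83806916, plus strand), had 2932, 479.7 and 566 normalized counts in Trf1+/+ mice and 624, 774 and 759 in Trf1flox/flox mice. The value of Trf1+/+ replicate 1 was the highest of any member in any library, and the other 5 lay between 479.7 and 774. The log2 fold change was -0.37 with a standard error of 0.98 (adjusted p = 0.996 from limma), and without that library it was 0.46, with both Trf1+/+ values below all 3 Trf1flox/flox values, again as in 9.15% of all tested genes. An unlisted noncoding gene on the other strand, Gm13684, shared 634 exonic bases with Itgav, 5.90% of its exons.

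Itga6, the laminin-binding alpha 6 chain (ENSMUSG00000027111, chromosome 2, 71745616 to 71858416, plus strand), had 483, 1715 and 176 normalized counts in Trf1+/+ mice and 733, 741 and 595 in Trf1flox/flox mice. As with Itgb1, Trf1+/+ replicate 2 was the highest and the Trf1flox/flox values lay within the range of the Trf1+/+ values. The log2 fold change was 0.38 with a standard error of 1.05 (adjusted p = 0.996 from limma). Without Trf1+/+ replicate 2 the groups did not overlap, with Itga6 higher in Trf1flox/flox mice, as in 10.7% of all tested genes.

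Itga1, the collagen-binding alpha 1 chain (ENSMUSG00000042284, chromosome 13, 114953096 to 115101964, minus strand), had 44.5, 697 and 455 normalized counts in Trf1+/+ mice and 577, 828 and 345 in Trf1flox/flox mice. It was lowest in Trf1+/+ replicate 1, like Itgb1, and the groups overlapped. The log2 fold change was 1.17 with a standard error of 1.25 (adjusted p = 0.996 from limma), and without that library it was -0.04. Gm49395, a gene with no row in the table, shared 685 exonic bases on the same strand, 3.68% of the exons of Itga1.

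Itga3, the alpha 3 chain that binds laminin in basement membranes (ENSMUSG00000001507, chromosome 11, 95044474 to 95076801, minus strand), was found at a high level in only 1 library of each group. It had 0, 249 and 0.985 normalized counts in Trf1+/+ mice and 0, 380.3 and 3.45 in Trf1flox/flox mice. The reads behind these values were 0, 301 and 1 and 0, 348 and 5. Itga3 was thus at or under the floor of 3 reads in 3 of the 6 libraries, it was not tested, and no difference between the groups was detectable.

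Itgb1bp1 was the only member whose groups did not overlap. It encodes ICAP1, a protein that binds the tail of the beta 1 chain inside the cell and competes with the integrin activators talin and kindlin (ENSMUSG00000062352, chromosome 12, 21240825 to 21286284, minus strand). It had 0.891, 191 and 29.6 normalized counts in Trf1+/+ mice, from 1, 231 and 30 reads, and 363, 608 and 306 in Trf1flox/flox mice, from 423, 556 and 444 reads. All 3 Trf1flox/flox values were above all 3 Trf1+/+ values, with means of 426 ± 160.2 (SD, n = 3) and 73.95 ± 103 (SD, n = 3). The study had shown Itgb1bp1 in a heatmap of these libraries, so its direction here is not independent evidence.

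The log2 fold change of Itgb1bp1 was 4.19 with a standard error of 1.74 (limma, unadjusted p = 0.0514 and adjusted p = 0.996), and it did not pass the threshold of 0.05. Over the alternatives run, its adjusted p lay between 0.432 and 1.00. Without Trf1+/+ replicate 1, where it had 1 read, its log2 fold change was 2.41 with a standard error of 1.07 (limma, unadjusted p = 0.0740). With any 1 of the 6 libraries left out the groups stayed apart, as groups apart in all 6 must, so this adds no support. In those cases 8.72% to 13.6% of all tested genes were apart and higher. Of all 9966 tested genes, 5.35% had groups that did not overlap with Trf1flox/flox higher, and 1 of the 7 members did. A further 3.33% had groups apart with Trf1flox/flox lower, and none of the 7 members did. By log2 fold change, 3.56% of the tested genes ranked above Itgb1bp1.

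Itgb1bp1 shares exonic sequence with 2 listed genes on the other strand, and the libraries were not stranded, so reads in the shared part cannot be assigned to 1 gene by strand. Asap2 shared 402 bases, 11.4% of the exons of Itgb1bp1, and had 0.891, 88.7 and 20.7 normalized counts in Trf1+/+ mice and 122, 0 and 57.9 in Trf1flox/flox mice. Cpsf3 shared 196 bases, 5.54% of its exons, and had 3.56, 544 and 1254 against 339, 1038 and 431. In Trf1flox/flox replicate 2, where Itgb1bp1 was highest, Asap2 was at 0 and Cpsf3 at 1038. Cpsf3 was highest in Trf1+/+ replicate 3, where Itgb1bp1 had 29.6. In Trf1+/+ replicate 1, Asap2, Cpsf3 and Itgb1bp1 were all low, at 0.891, 3.56 and 0.891. The part of shared reads in the values of Itgb1bp1 was not tested.

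**Figure D1:**
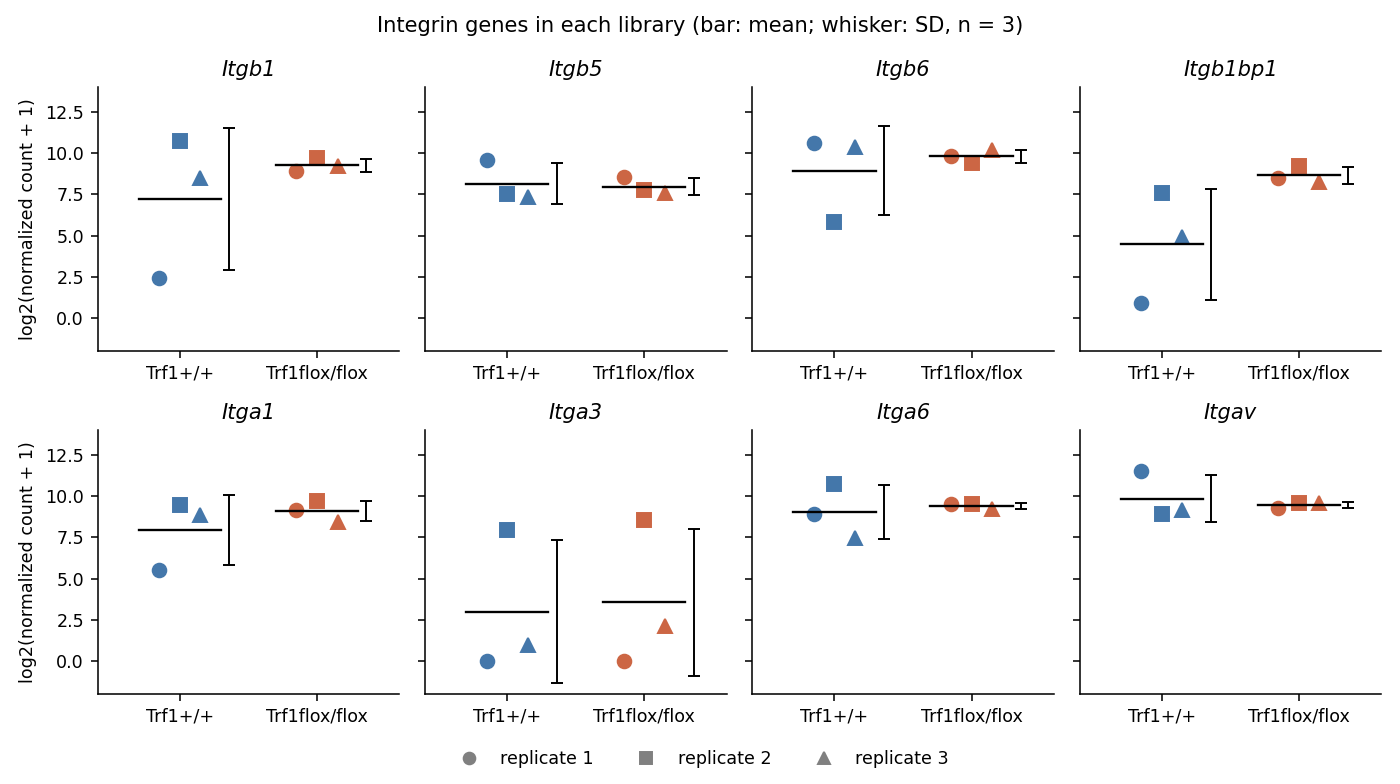
Normalized counts of the 8 integrin genes on a log2(normalized count + 1) axis, with a point per library (Trf1+/+ left, Trf1flox/flox right, marker shape for the replicate number), the group mean as a bar and the SD (n = 3) as a whisker. The 3 Trf1flox/flox points of Itgb1bp1 lie above all 3 Trf1+/+ points, and the Itgb1 point of Trf1+/+ replicate 1 lies far below the other 5.

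Across the 7 tested members, 5 had a log2 fold change above 0 and 2 below it, beside 55.9% of all tested genes above 0. No member passed an adjusted p of 0.05 in limma, and 0 of 9966 genes did (0%). At an unadjusted p under 0.05, 0 of the 7 members passed in limma against 4.56% of all genes (454). In edgeR, 0 members and 0 genes (0%) passed the adjusted threshold, with 0 members and 196 genes at an unadjusted p under 0.05. In DESeq2, 0 members and 58 genes (0.582%) passed the adjusted threshold, with 0 members and 410 genes unadjusted. The median log2 fold change of the 7 members was 0.87, beside 0.20 over all tested genes. Without Trf1+/+ replicate 1 it was 0.46 beside -0.03, and in edgeR it was -0.23 beside -0.04, so the sign of the members' median changed with the model.

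**Figure D2:**
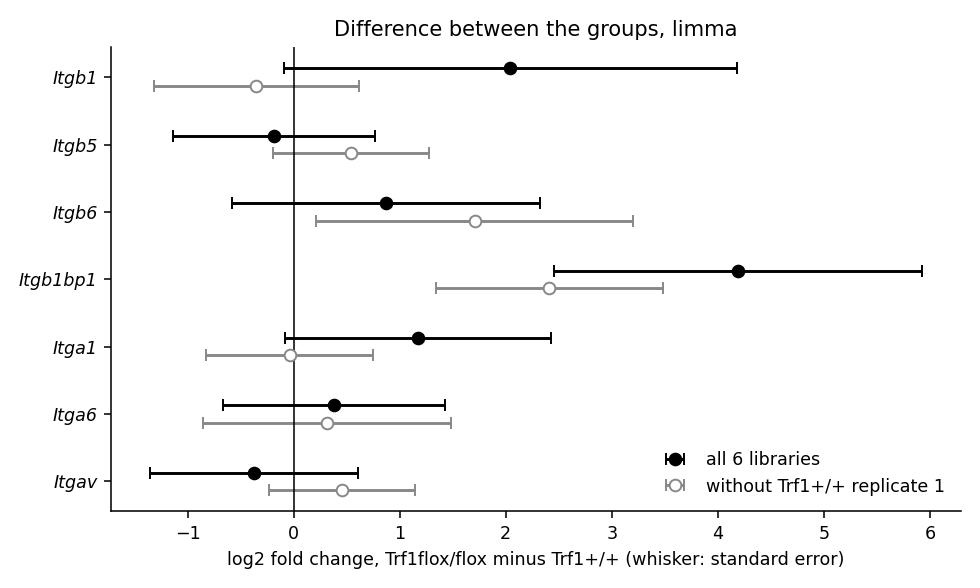
Log2 fold change of the 7 tested integrin genes (horizontal axis, Trf1flox/flox minus Trf1+/+ on the log2(normalized count + 1) scale) with its standard error from limma, for all 6 libraries (filled) and without Trf1+/+ replicate 1 (open). Itgb1bp1 is at 4.19 and 2.41, and Itgb1, Itgb5, Itga1 and Itgav change sign when that library is left out.

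The spread between mice also differed between the groups. All 7 tested members had a larger SD of log2(normalized count + 1) among the Trf1+/+ than among the Trf1flox/flox libraries, beside 64.4% of all tested genes. Their median SD was 2.12 in Trf1+/+ and 0.39 in Trf1flox/flox mice, and over all genes the medians were 2.06 and 1.17. Without Trf1+/+ replicate 1, 4 of the 7 members still had the larger SD in Trf1+/+ mice, beside 43.6% of all genes. The spread was not tested, since 3 libraries per group give little information on it.

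Per kilobase of exon, the order of the members changed from library to library. Ordered by the median over the 6 libraries, Itgb6 had 146 normalized counts per kilobase, Itgb1 132.8, Itga6 73.6, Itgb1bp1 70.3, Itgav 64.3, Itgb5 57.8, Itga1 27.8 and Itga3 0.388. The ranges of neighbours in this order overlapped, except those of Itgb5 (46.3 to 219) and Itga1 (2.39 to 44.5), which lay just apart. Itgb6 was first in Trf1+/+ replicate 3 and in Trf1flox/flox replicates 1 and 3, Itgb1 in replicate 2 of both groups, and Itgav in Trf1+/+ replicate 1. Itga1, Itgb1bp1 and Itgb1 ranged down to 2.39, 0.252 and 1.09 per kilobase in Trf1+/+ replicate 1, and Itgb6 down to 7.92 in Trf1+/+ replicate 2.

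The share of each subunit among the reads of its kind in a library does not depend on the size factor. Among the reads of Itgb1, Itgb5 and Itgb6, Itgb1 took 0.189%, 88% and 19.6% in Trf1+/+ mice and 27.2%, 47.7% and 30.8% in Trf1flox/flox mice. Itgb6 took 66.8%, 2.86% and 71.5%, and 51.5%, 39.4% and 59.5%. The beta reads were thus mostly Itgb1 in Trf1+/+ replicate 2 and nearly without it in Trf1+/+ replicate 1. They were a mixture in Trf1+/+ replicate 3 and in Trf1flox/flox mice. The 95% exact binomial intervals of the Itgb1 share were 0.0615% to 0.442% in Trf1+/+ replicate 1 and 86.6% to 89.3% in Trf1+/+ replicate 2. They cover the counting of reads only, not PCR or the sampling of cells. The gap between these libraries was far beyond that counting error, but mouse and library cannot be told apart. Itgb5 made up the rest, 8.96% to 33.0% in Trf1+/+ and 9.69% to 21.2% in Trf1flox/flox mice.

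Among the alpha reads, Itgav took 84.8%, 15.3% and 47.2% in Trf1+/+ mice and 32.3%, 28.4% and 44.6% in Trf1flox/flox mice. Itga6 took 14%, 54.6% and 14.7%, and 37.9%, 27.2% and 34.9%. In each group both subunits varied, and the Trf1flox/flox shares lay within the range of the Trf1+/+ shares. Itga1 took 1.29% to 38.0% in Trf1+/+ and 20.3% to 30.4% in Trf1flox/flox mice. Itga3 took up to 7.94% in Trf1+/+ and up to 14% in Trf1flox/flox mice, and its 0 of 3884 alpha reads in Trf1+/+ replicate 1 allowed a share of up to 0.0949% (exact binomial). None of the 4 shares differed by more than the spread between mice: the mean of Itgav was 49.1% ± 34.8 and 35.1% ± 8.45 (SD, n = 3; exact two-sided permutation p = 0.6), and all 4 adjusted p-values were 0.8. The difference of the Itgav share turned from -14 to 3.84 percentage points without Trf1+/+ replicate 1. Without Trf1+/+ replicate 2 it was -30.9 points, and that of the Itga6 share was 19 points. Each then had an unadjusted exact two-sided permutation p of 0.1. The smallest p that this design allows is 0.1.

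**Figure D3:**
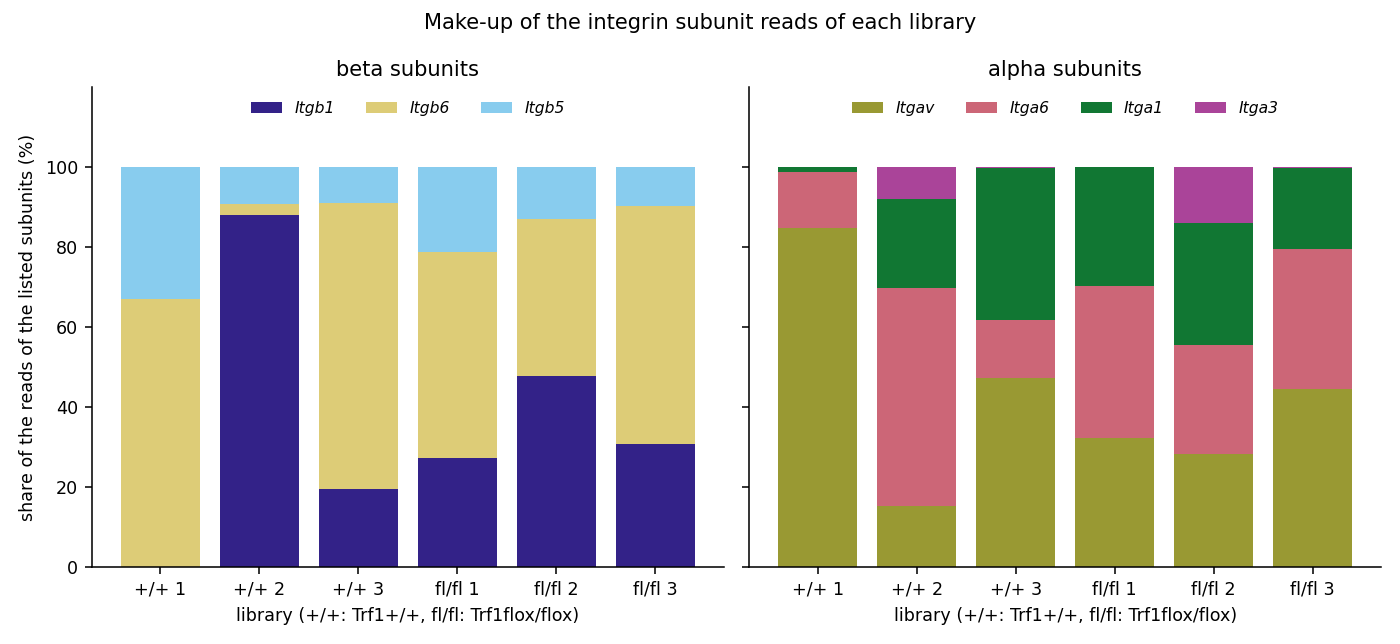
Stacked bars of the share (%) of each beta subunit (left) and alpha subunit (right) among the reads of the listed subunits of that kind, with a bar per library. Itgb1 makes up 88% of the beta reads in Trf1+/+ replicate 2 and 0.189% in Trf1+/+ replicate 1. Trf1+/+ replicate 3 and the 3 Trf1flox/flox libraries lie between these.

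Itgb1 and Itgb6 ranked almost oppositely over the 6 libraries. Spearman's rho was -0.943 and Pearson's r of log2(normalized count + 1) was -0.559, which became -0.927 without Trf1+/+ replicate 1. Itga6 ran opposite to Itgb6 (rho -0.943, r -0.774) and with Itgb1 (rho 0.886, r 0.37, and 0.879 without Trf1+/+ replicate 1). The closest pair by r was Itgb1 and Itga1, whose chains form a collagen receptor, at 0.965, but this fell to 0.548 without Trf1+/+ replicate 1. These correlations describe 28 pairs in 6 libraries that share depth and cell make-up, and no p is given.

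**Figure D4:**
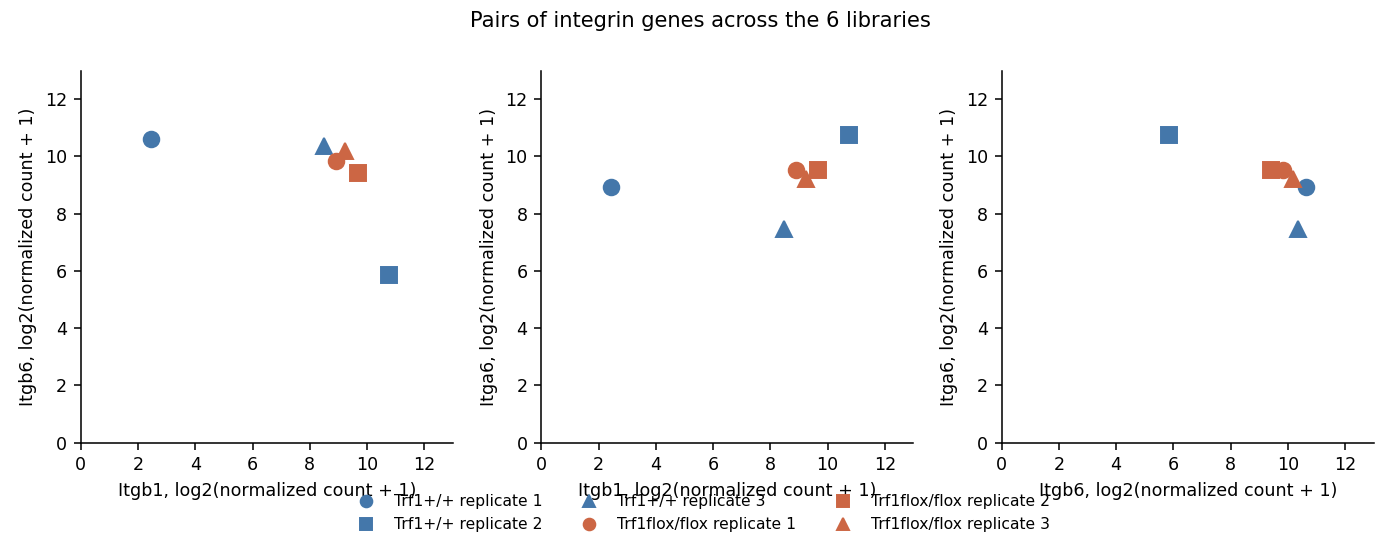
Itgb6 against Itgb1, Itga6 against Itgb1 and Itga6 against Itgb6, each on log2(normalized count + 1) axes, with a point per library (colour for the genotype, marker shape for the replicate). Trf1+/+ replicate 2 has the most Itgb1 and Itga6 and the least Itgb6.

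Markers of tubule cells differed between the same libraries. The summed level of the 20 proximal tubule markers was 46870 to 198400 normalized counts in Trf1+/+ and 56540 to 224700 in Trf1flox/flox mice. It was lowest in Trf1+/+ replicate 2, the library with the least Itgb6 and the most Itgb1. The next lowest sum, 56540 in Trf1flox/flox replicate 1, did not share this pattern: Itgb6 was at 908.2 and Itgb1 at 480.3 there. The 15 collecting duct markers summed to 2661 to 16460 in Trf1+/+ and 3545 to 22760 in Trf1flox/flox mice, with Aqp2 at 0 in Trf1+/+ replicates 1 and 3 and in Trf1flox/flox replicate 3. The 13 loop and distal tubule markers summed to 122800 to 198600 and to 97060 to 197400. The part of cell make-up in the levels of Itgb1 and Itgb6 was not tested.

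By Pearson's r over the 6 libraries, the genes most like Itgb1 among the 7175 whose mean reached 100 normalized counts were Nfkbia (r = 0.998), Ica1 (0.9975) and Nudt2 (0.9965). Nfkbia, which encodes an inhibitor of NF-kappa B, had 4.45, 301 and 97.6 normalized counts in Trf1+/+ mice and 115, 196 and 175 in Trf1flox/flox mice. All 3 were low in Trf1+/+ replicate 1, where Ica1 and Nudt2 had 0.891 each, and highest in Trf1+/+ replicate 2. Without Trf1+/+ replicate 1 the values of r were 0.973, 0.978 and 0.953, for genes that had been picked with it. Because the 3 genes are the highest of 7175 over 6 libraries, a high r came with the choice. It is not read as support for a link to Itgb1, and no p is given.

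The other integrin genes of a list of 21 had 7 rows, and 5 passed the filter. Of these 2 were higher and 3 lower in Trf1flox/flox mice, and their median log2 fold change was -0.40, beside 0.20 over all tested genes. Without Trf1+/+ replicate 1 that median was -0.073, beside -0.03 over all tested genes. With the libraries scaled to the same upper quartile it was -0.13, beside 0.44. Itgb8, the beta chain that pairs with alpha v and also releases active TGF-beta, was the highest, with 593, 156 and 569.5 normalized counts in Trf1+/+ mice and 132, 330.0 and 519.6 in Trf1flox/flox mice. Itgb3bp, a centromere protein named for its binding to the beta 3 chain, was the only one whose groups did not overlap, with 313, 209 and 183 against 1.72, 151 and 166 (log2 fold change -2.49, standard error 1.74, adjusted p = 0.996 from limma). The Itgb3bp value of 1.72 in Trf1flox/flox replicate 1 was under the floor, and its log2 fold change was -1.08 in edgeR. Itgb2l, a beta 2-like chain, had 0, 2.49 and 59.1 against 55.8, 53.5 and 0.689. Against a background of 3.33% of genes apart and lower, 1 of 5 is too few genes to read further.

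Of 57 genes of the integrin adhesion complex, the proteins at the inner and outer face of the receptor, 48 had a row and 43 were tested. Of these 23 were higher and 20 lower in Trf1flox/flox mice, and their median log2 fold change was 0.08, beside 0.20 over all genes. The median was -0.10 without Trf1+/+ replicate 1, beside -0.03 over all genes, so its sign rested on that library. The most abundant were the tetraspanins Cd63 (8638 to 13804 normalized counts) and Cd81 (4641 to 11547) and Bsg (4226 to 7865), which encodes basigin. Zyx, which encodes the focal adhesion protein zyxin, had 497, 288 and 235 normalized counts in Trf1+/+ mice and 1.72, 132 and 12.4 in Trf1flox/flox mice (log2 fold change -4.26, standard error 1.52; limma, unadjusted p = 0.0304, adjusted p = 0.962). The Zyx value of 1.72 in Trf1flox/flox replicate 1 was under the floor, and its log2 fold change was -2.84 in edgeR. Actn1, which encodes alpha-actinin 1, had 0.891, 1.66 and 0 against 18.9, 12 and 28.9 (limma, unadjusted p = 0.00527, adjusted p = 0.426), with all 3 Trf1+/+ libraries under the floor. Actn1 passed the filter on low values only through the group where it was high, so this p is not read as support for a difference. Zyx and Actn1 were the only 2 of the 43 at an unadjusted p under 0.05 and the only 2 whose groups did not overlap, 1 in each direction, and neither passed the adjusted threshold. Over all tested genes, 4.56% were at such a p, 5.35% were apart and higher and 3.33% apart and lower, so 2 of 43 is not more than the background.

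Of 52 genes of integrin ligands, the matrix and surface proteins that integrins bind, 29 had a row and 24 were tested. Of these 17 were higher and 7 lower in Trf1flox/flox mice, beside 55.9% of all tested genes above 0. Their median log2 fold change was 1.11, beside 0.20 over all tested genes. Without Trf1+/+ replicate 1 the ligand median was 0.0033, beside -0.03 over all tested genes, so its size rested on that library. Spp1, the gene of osteopontin, a ligand of alpha v receptors, was the most abundant, with 24672, 32696 and 27905 normalized counts in Trf1+/+ mice and 37975, 16736 and 15213 in Trf1flox/flox mice. Col4a4, a basement membrane collagen chain, had 1491 to 1951 in Trf1+/+ and 1608 to 1977 in Trf1flox/flox mice, and Cdh1, the gene of E-cadherin, had 365 to 2770 and 730.4 to 3180.

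Nid2 and Lama5 were the 2 ligand genes whose groups did not overlap, 2 of 24 tested, beside 5.35% of all tested genes apart and higher. Nid2, the gene of nidogen 2, had no read in any of the 3 Trf1+/+ libraries, while its normalized counts in Trf1flox/flox mice were 42.1, 41.5 and 39.97, at least 15.2-fold higher against a floor of 3 reads per library (limma, unadjusted p = 0.000249, adjusted p = 0.110). It passed the filter on low values only through the Trf1flox/flox libraries, so it had to differ and this p is not read as support. Lama5, the laminin alpha 5 chain of basement membranes that alpha 3 and alpha 6 integrins bind, had 1.78, 48.1 and 17.7 against 128, 304 and 69.6 (log2 fold change 3.36, standard error 1.31; limma, unadjusted p = 0.0419, adjusted p = 0.996). Its log2 fold change was 2.21 without Trf1+/+ replicate 1, where its value was under the floor. Nid2 and Lama5 were also the only 2 of the 24 at an unadjusted p under 0.05 in limma, beside 4.56% of all tested genes. Neither passed the adjusted threshold. The ligand list's median stayed at 1.11 with Nid2 set to its lower bound.

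**Figure D5:**
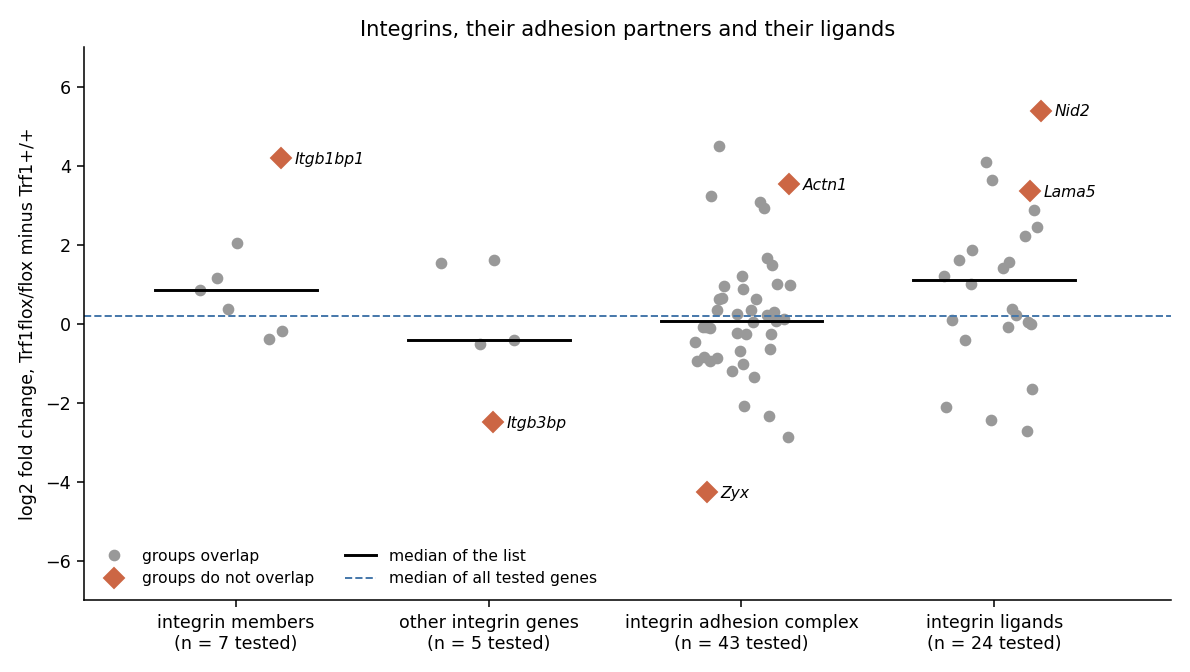
Log2 fold change (vertical axis, Trf1flox/flox minus Trf1+/+) of each tested gene in 4 lists, with the list median as a bar, the median of all tested genes (0.20) as a dashed line and genes whose groups do not overlap as named diamonds. Most genes of each list overlap between the groups, and the named genes lie on both sides of 0.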

How the data were processed

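RNA of sorted kidney cells was measured in 6 libraries. The authors aligned reads with TopHat2 2.0.10, counted them per gene with HTSeq 0.6.1 and deposited normalized counts (unit: signal), the reads divided by a size factor per library. The study's methods name GRCm38 and the submitters' notes GRCm39. Coordinates here are from GENCODE on GRCm38, in which 98.2% of the symbols were found. The kit marked no strand. Reads were recovered from the steps of the low values.

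Groups follow the labels. limma 3.58.1 tested log2(value + 1) over 9966 genes, those that reached 10 normalized counts in 3 or more libraries, with Benjamini-Hochberg adjustment. edgeR 4.0.16 and DESeq2 1.42.0 on the recovered reads, other scalings, library weights, another pseudocount, no filter and leaving out each library were alternatives. The code of the fits was run on simulated counts with less spread than these data and no library that stood apart. That run therefore says nothing on how well the fits find differences here. The members and lists were chosen with earlier results of these data known. Named from the lists were genes under an unadjusted p of 0.05, the 3 highest means and the 3 largest changes among groups apart. The alpha shares were planned for 5 genes, of which 4 had a row.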

Additional observations from a re-analysis of the deposited data

How the results depend on the processing

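No member passed an adjusted p of 0.05 under any of the 13 alternatives, and Itgb1bp1 kept its direction under all 13. Because its groups were apart in all 6 libraries, leaving 1 library out could not turn that direction. The unadjusted p of Itgb1bp1 from limma was 0.0238 with a pseudocount of 10 and 0.0107 without Trf1+/+ replicate 2. Signs of other members changed. In edgeR the log2 fold change of Itgb1 was -0.23 and of Itga6 -0.23, and the members' median was -0.23. In DESeq2 these were -0.15, -0.19 and -0.15, Itgb6 was -0.071, and 58 genes passed an adjusted p of 0.05 against 0 in limma. Itgb5 turned to 0.10 with upper quartile scaling, and with library weights Itgb5 was 0.18, Itgav 0.21 and the members' median 0.21. With 1 library left out in turn, the log2 fold change ranged from -0.35 to 3.81 for Itgb1, from -0.58 to 0.54 for Itgb5, from -0.68 to 1.71 for Itgb6, from -0.038 to 1.93 for Itga1, from -0.41 to 1.23 for Itga6, from -0.85 to 0.46 for Itgav, and from 2.41 to 5.75 for Itgb1bp1. The members' median ranged from 0.46 to 1.58, the members whose groups did not overlap from 1 to 4 and all such genes from 1517 to 2431. Differences in alpha share ranged from -3.24 to 15.1 percentage points for Itga1, from -2.57 to 4.68 for Itga3, from -1.31 to 19 for Itga6 and from -30.9 to 3.84 for Itgav. Upper quartile scaling moved the median of all genes from 0.20 to 0.44, and that of the members from 0.87 to 1.15. The cause of these changes was not tested. No paired analysis was possible because the labels give the libraries no replicate numbers. Few reads stand behind Itga3 in 4 libraries (0 to 5 each) and Itgb1bp1 in Trf1+/+ replicate 1 (1 read).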
